A study of Mus musculus with 6 samples.

Results

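Mouse zinc finger protein genes, taken as the genes whose single annotated symbol begins with Zfp and a digit, were followed in brain of APPPS1 mice, a transgenic model of amyloid deposition, with and without *Abcc1*. The rule found 58 genes among the 5017 with a single symbol in the table, measured by 378 probe sets (median 5.5 per gene, range 1 to 21). Of the 58, 24 lie on chromosome 13, 20 on chromosome 11, 5 on chromosome 12 and 4 each on chromosomes 1 and 10. The remaining gene, *Zfp706*, is placed on chromosome 15, but the ID of its only probe set falls between IDs of genes on chromosome 1. Most of the 5017 genes likewise lie on chromosomes 1 (1144), 10 (944), 11 (1550), 12 (635) and 13 (645). Genes of other chromosomes are largely absent from the table. The spread over chromosomes and the number of genes measured in each list below therefore describe this table, not the family in the genome. Current symbols replaced 4 older ones: *Zbtb18* was annotated as Zfp238, *Zscan26* as Zfp187, *Zkscan8* as Zfp192 and *Zfp874a* as Zfp874. Total RNA of mouse brain was hybridised to 6 one-colour whole-transcript arrays. The 3 control arrays carry the genotype label APPPS1-FVB and the 3 knockout arrays APPPS1-FVBxABCC1, so by their labels both groups share the APPPS1 transgenes; plaques were not measured in the data used here. In this model the transgenes are driven by a *Thy1* promoter in neurons; age, sex, brain region and batch are not in the labels, which also do not say whether each array stands for its own animal.

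Most genes named Zfp encode proteins of the Cys2-His2 class, in which a zinc ion holds a short finger that reads bases of DNA, and many fingers in a row read a longer site. The largest group in mammals carries a KRAB domain, which binds the co-repressor Trim28 and through it the histone methyltransferase Setdb1, and many of these proteins silence transposable elements. KRAB zinc finger genes arose by repeated duplication and lie in clusters of near-identical neighbours. Others carry a SCAN or BTB domain for pairing with partners, and a few, such as *Zfp36l1*, have CCCH fingers that bind AU-rich mRNA and speed its decay.

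No zinc finger gene passed the test, and the largest difference by gene means was 1.27-fold. With limma's moderated test, fitted over all 5017 genes with Benjamini-Hochberg adjustment, 0 of the 58 had an adjusted p below 0.05 by gene means, which average every probe set of the gene, where 0% of all genes did. By the brightest probe set of each gene the count was again 0 of 58, against 0% of all genes. Among single probe sets it was 0 of 378, against 0.00509% of 58919, and at an adjusted p below 0.1 it was also 0, against 0.0119%. Without adjustment, 7 of 58 gene means were higher at a limma raw p below 0.05 (7.95% of all genes) and 0 were lower (6.12%). At the brightest probe set 5 were higher (3.71%) and 0 lower (5.90%). Among the single probe sets 14 of 378 were higher at that level (4.75%) and 2 lower (2.94%). Such p-values speak only for the spread among these arrays, which may be technical. With 3 arrays in each group, an exact permutation test has 0.1 as its smallest two-sided p.

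Below the threshold, the values of the zinc finger genes lay more often on the higher side in the knockout than those of the table as a whole. By gene means 37 of 58 were higher, 20 lower and 1, *Zfp2*, equal, with a median log2 difference of 0.03, while of all genes 48.2% were higher and 51.4% lower, with a median of -0.0044. After quantile normalization 34 of the 58 were higher, beside 42.7% of all genes, and after median centring 34, beside 38.9%. At the brightest probe set 30 were higher (42.5% of all genes) and 28 lower (56.7%), with a median of 0.01 beside -0.02 over all genes. There 26 were higher after quantile normalization, beside 36.8% of all genes, and 27 after median centring, beside 35.8%. By gene means the majority of the 58 thus stayed higher under both scalings, while by brightest probe sets it turned. In both summaries their share stayed above that of all genes. The sign differed between the mean and the brightest probe set in 16 of the 58, beside 23.6% of all genes. Without control 2 the count by gene means was 30 and the median 0.01. These are descriptions without a test of the list. Features taken as array controls had medians of 4.09, 4.16 and 4.11 in controls 1 to 3. In knockouts 1 to 3 these medians were also higher, at 4.27, 4.29 and 4.2. Probe sets of the zinc finger genes were slightly dimmer than the table, with array medians of 6.865 to 6.945 beside 7.04 to 7.09 over all probe sets. The control features' 95th percentile, 9.99, lay well above these medians, and 3.70% of the family's probe sets exceeded it beside 9.46% of all. Whether background signal has a part in the counts was not tested.

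**Figure D1:**
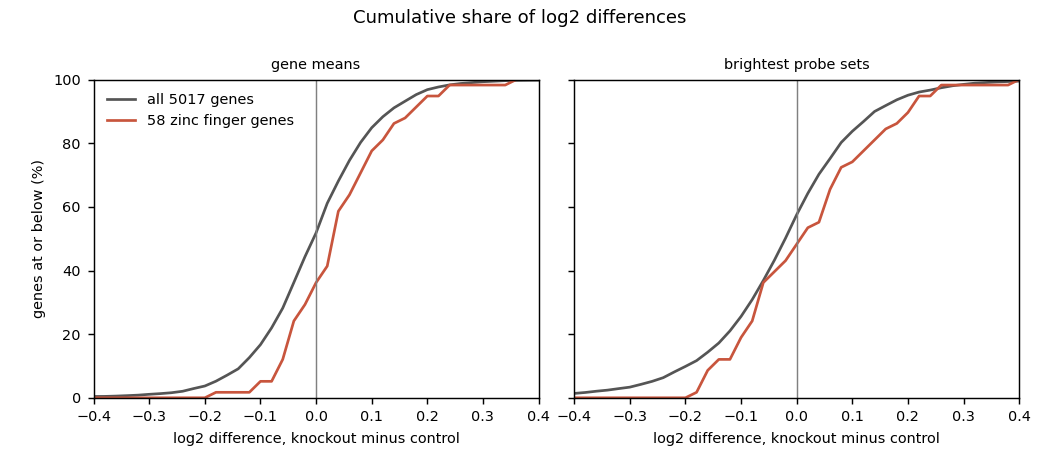
Cumulative percentage of genes (y axis) at or below each log2 difference of knockout minus control (x axis), for all 5017 genes and the 58 zinc finger genes, by gene means (left) and by brightest probe sets (right). By gene means the curve of the zinc finger genes runs to the right of the other through the middle of the range, with medians of 0.03 and -0.0044; by brightest probe sets the curves touch just below 0.

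In the values as deposited, the groups did not overlap in the median over the family, by a narrow margin. The median of the 58 gene means, taken relative to each gene's control mean, was 0.01, -0.03 and 0.02 in controls 1 to 3 and 0.02, 0.07 and 0.04 in knockouts 1 to 3. Every knockout was above every control, with the highest control at 0.0204 and the lowest knockout at 0.0248. By brightest probe sets the groups overlapped, at 0.01, 0.0033 and -0.0017 in the controls and -0.0117, 0.005 and 0.0317 in the knockouts. Over all genes the same median lay between -0.0062 and 0.0047 by gene means and between -0.0267 and 0.0033 by brightest probe sets. Medians of whole arrays were 7.04, 7.05 and 7.06 in controls 1 to 3 and 7.07, 7.09 and 7.05 in knockouts 1 to 3. Such offsets are as large as the margin. With median centring the family's median difference by gene means was 0.0124 instead of 0.0324.

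**Figure D2:**
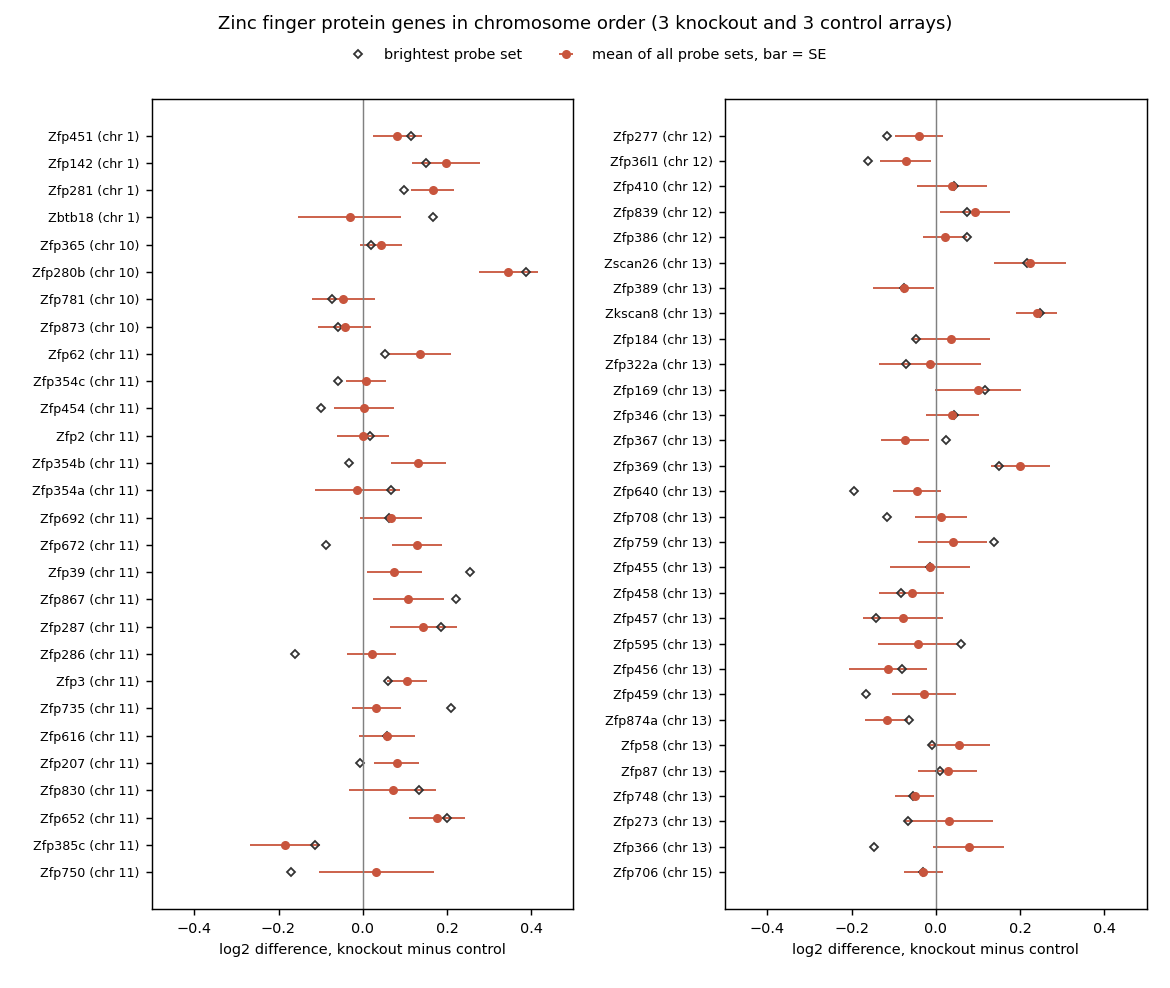
Log2 difference of knockout minus control (x axis) for each of the 58 genes in chromosome order, by the mean of all probe sets (filled circles, bars are limma SE) and by the brightest probe set (open diamonds), 3 arrays per group. *Zfp280b* lies farthest to the right at 0.35 and *Zfp385c* farthest to the left at -0.19 among the gene means.

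*Zfp280b*, on chromosome 10, had the largest value of the family. It encodes a Cys2-His2 protein related to the fly insulator protein Suppressor of Hairy-wing. Its gene mean was 6.88, 6.85 and 7.09 on the log2 scale in the controls and 7.31, 7.26 and 7.29 in the knockouts. All knockout values were above all control values. The log2 difference was 0.35 (SE 0.07, 1.27-fold, limma adjusted p = 0.215), from 6.94 ± 0.13 (SD, n = 3) to 7.29 ± 0.03 (SD, n = 3). Its 3 probe sets were all higher, by 0.14, 0.39 and 0.51. The one at 0.51 was at 4.97, 4.84 and 5.76 in the controls, so control 3 alone overlapped the knockouts there, and with each array's median of the 3 probe sets in place of their mean the log2 difference of the gene was 0.16.

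Both SCAN-domain genes that carried older Zfp names were higher in the knockout. *Zkscan8* was at 7.14, 7.18 and 7.07 in the controls and 7.36, 7.39 and 7.36 in the knockouts. The spread within groups was small and the groups did not overlap, with a log2 difference of 0.24 (SE 0.05, 1.18-fold, limma adjusted p = 0.215). *Zscan26*, its neighbour on chromosome 13, was at 8.02, 8.10 and 8.11 in the controls and 8.22, 8.50 and 8.19 in the knockouts. Knockout 2 stood above the other knockouts, and without it the log2 difference of 0.22 (SE 0.09, limma adjusted p = 0.312) was 0.13. *Zfp389*, which lies between them and has 1 probe set, had -0.08 (SE 0.07), and *Zfp184*, the fourth gene of this group, 0.04 at the mean and -0.05 at its brightest probe set.

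Over both summaries, groups did not overlap in 4 genes, *Zfp280b*, *Zkscan8*, *Zscan26* and *Zfp287*, all higher in the knockout, a pattern found in 183 of all 5017 genes; *Zfp287* was singled out after its values were seen. By gene means 9 of 58 lay entirely above the controls (11.3% of all genes) and 1 below (8.85%). By brightest probe sets these were 10 above (6.20% of all genes) and 1 below (8.37%). After quantile normalization they were 8 above (8.45% of all genes) and 2 below (11.5%) by gene means, and 5 above (4.56%) and 3 below (12.3%) by brightest probe sets. The other genes above the controls by gene means were *Zfp281*, *Zfp369*, *Zfp3*, *Zfp207* and *Zfp672*, and the gene below them was *Zfp874a*.

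The start regions of these 4 genes and of *Zfp874a* are shown so that their base composition can be compared, as the 250 bases before the annotated start from RefSeq's promoter table (GRCm38.p6), 5′ to 3′ on the gene's strand, with each CG pair in capitals.
Zfp280b, chr10:76032362-76032611 (+): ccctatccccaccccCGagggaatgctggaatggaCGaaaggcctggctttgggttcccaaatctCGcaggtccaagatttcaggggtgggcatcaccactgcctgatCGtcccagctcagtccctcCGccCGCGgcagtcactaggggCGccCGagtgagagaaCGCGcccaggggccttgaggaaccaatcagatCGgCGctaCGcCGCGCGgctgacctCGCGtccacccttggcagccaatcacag
Zfp287, chr11:62731897-62732146 (-): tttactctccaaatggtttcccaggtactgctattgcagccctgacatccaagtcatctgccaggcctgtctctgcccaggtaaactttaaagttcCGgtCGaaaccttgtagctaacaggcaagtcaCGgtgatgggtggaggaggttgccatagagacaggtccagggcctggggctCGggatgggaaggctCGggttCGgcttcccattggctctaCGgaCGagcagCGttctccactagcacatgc
Zscan26, chr13:21453728-21453977 (-): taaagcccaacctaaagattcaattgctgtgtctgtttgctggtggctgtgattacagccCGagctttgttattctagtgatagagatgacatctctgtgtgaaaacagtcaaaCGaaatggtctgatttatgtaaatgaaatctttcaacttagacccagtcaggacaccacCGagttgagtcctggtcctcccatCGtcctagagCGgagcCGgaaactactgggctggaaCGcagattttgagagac
Zkscan8, chr13:21531115-21531364 (-): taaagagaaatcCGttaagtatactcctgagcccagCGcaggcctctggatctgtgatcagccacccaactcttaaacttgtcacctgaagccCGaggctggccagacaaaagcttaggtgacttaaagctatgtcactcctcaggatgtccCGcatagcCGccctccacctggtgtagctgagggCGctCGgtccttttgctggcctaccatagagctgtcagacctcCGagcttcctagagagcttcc
Zfp874a, chr13:67451625-67451874 (-): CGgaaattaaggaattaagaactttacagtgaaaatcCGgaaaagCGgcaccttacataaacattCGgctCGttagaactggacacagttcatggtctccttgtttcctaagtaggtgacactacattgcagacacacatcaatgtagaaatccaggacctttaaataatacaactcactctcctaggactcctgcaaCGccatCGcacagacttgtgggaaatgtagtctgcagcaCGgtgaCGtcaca
The 250 bases hold 19 CG pairs in *Zfp280b*, 9 in *Zfp287*, 7 in *Zscan26*, 8 in *Zkscan8* and 9 in *Zfp874a*. With the 50 bases after the start included, the counts are 27, 16, 13, 12 and 10 in the same order. Windows of 300 bases, which also take in 50 bases after the start, were listed for 48 of the 58 genes, and the first listed was used for each. They held a median of 13 CG pairs, from 2 to 51, beside 7 over 27025 genes with a window. On either strand CCAAT was found in 24 of the 48 (50%, beside 37.9% of all windows), GGGCGG in 21 (43.8%, beside 35.9%) and TATAAA in 5 (10.4%, beside 14.2%). None of these motifs contains another, and a match describes the letters only.

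**Figure D3:**
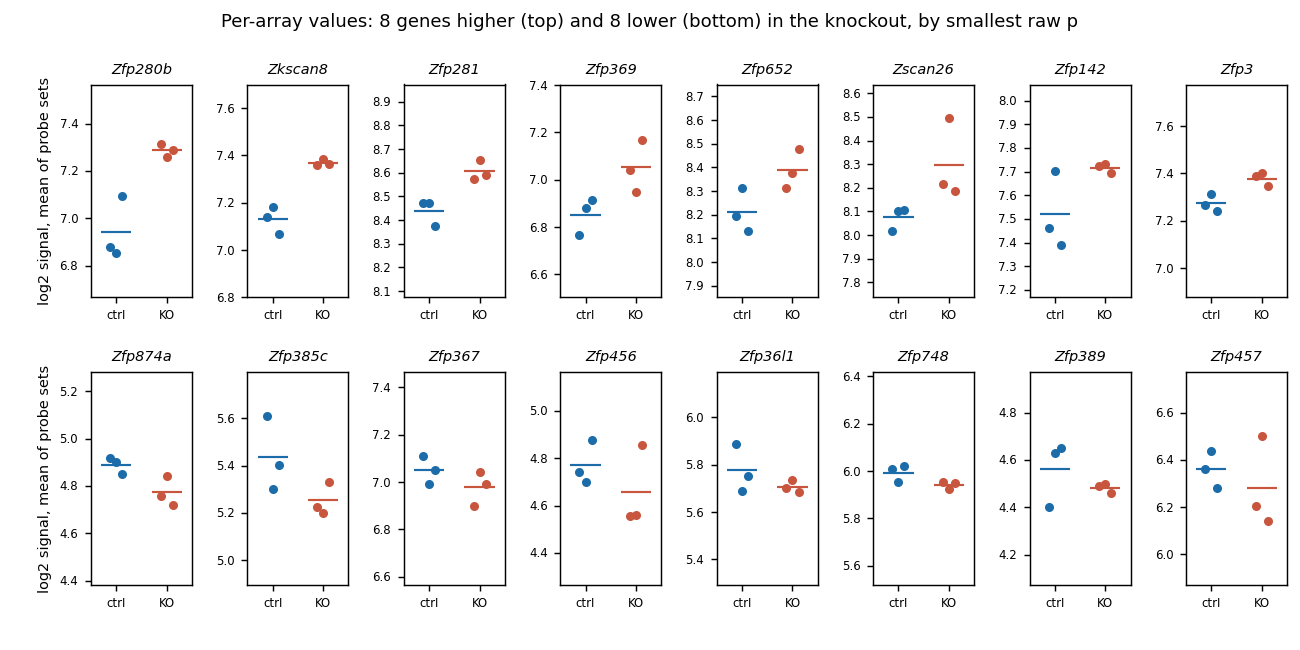
Log2 signal of each array (mean of all probe sets, y axis; 3 control and 3 knockout arrays, horizontal lines are group means) for the 8 genes higher and the 8 lower in the knockout with the smallest raw p; each panel spans 0.9 log2 units. In the top row the arrays of *Zfp142* and *Zfp652* overlap between groups and those of the other genes do not. In the bottom row only those of *Zfp874a* do not overlap.

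Among the regulators that lie outside dense clusters, several broadly expressed genes were slightly higher in the knockout. *Zfp281*, a factor known from stem cell pluripotency, was at 8.47, 8.47 and 8.38 in the controls and 8.57, 8.65 and 8.59 in the knockouts, a difference of 0.17 on the log2 scale (SE 0.05, limma adjusted p = 0.252). *Zfp142*, a large protein whose human counterpart is tied to neurodevelopmental disorder, was at 7.46, 7.70 and 7.39 in the controls and 7.72, 7.73 and 7.69 in the knockouts. Control 2 reached the level of the knockouts, and the log2 difference of 0.20 (SE 0.08, limma adjusted p = 0.344) was 0.29 without that array and 0.13 without control 3. *Zfp652*, a transcriptional repressor, was at 8.19, 8.31 and 8.13 in the controls and 8.31, 8.38 and 8.48 in the knockouts (0.18, SE 0.07, limma adjusted p = 0.312), with control 2 just above knockout 1. *Zfp3* was at 7.27, 7.32 and 7.24 in the controls and 7.39, 7.40 and 7.35 in the knockouts, a log2 difference of 0.11 (SE 0.05). Its second probe set carried more of this, with 0.06 at the brighter and 0.15 at the dimmer of its 2.

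*Zfp369*, also known as Nrif2 for its likeness to a partner of the neurotrophin receptor p75, was at 6.77, 6.88 and 6.91 in the controls and 7.04, 6.95 and 7.17 in the knockouts. The groups did not overlap, and the log2 difference was 0.20 (SE 0.07, limma adjusted p = 0.284). Other regulators with a known role in brain or in the nucleus had gene means closer to 0, all with overlapping groups except *Zfp207*. *Zbtb18*, a BTB repressor needed for the growth of cortical neurons, had -0.03 (SE 0.12) by gene mean and 0.17 (SE 0.07, limma adjusted p = 0.529) at its brightest probe set, where the controls were at 9.82, 9.84 and 10.03 and the knockouts at 10.08, 10.07 and 10.04. It lies between *Cadm3* and *Nvl* on chromosome 1. *Zfp365*, a partner of the psychiatric risk protein Disc1, had 0.04 (SE 0.05) at 8 probe sets. *Zfp410*, a regulator that acts through *Chd4*, had 0.04 (SE 0.08) at 14, and *Zfp277* had -0.04 (SE 0.06) at 13 and -0.12 (SE 0.07) at the brightest. *Zfp451*, a SUMO ligase, had 0.08 (SE 0.06) and *Zfp207*, a spindle assembly protein with 21 probe sets, 0.08 (SE 0.05) by mean and -0.01 at its brightest.

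*Zfp36l1*, the only member of the Zfp36 family measured here, was at 5.89, 5.69 and 5.75 in the controls and 5.70, 5.73 and 5.68 in the knockouts. The groups overlapped, and the log2 difference of -0.07 (SE 0.06, limma adjusted p = 0.620) was -0.02 without control 1. At its brightest probe set it was -0.16 (SE 0.11). Of 15 mRNAs listed as AU-rich targets of this family 7 were measured, and 0 passed. By gene means 7 were lower and 0 higher, with a median of -0.10, but by brightest probe sets 4 were lower and 3 higher, with a median of -0.03. The smallest p among them belonged to *Il10*, an anti-inflammatory cytokine, at -0.17 (SE 0.05, limma adjusted p = 0.250) by mean and 0.08 at its brightest probe set. Its gene means were dim, between 3.58 and 3.69 in the controls and between 3.43 and 3.49 in the knockouts. These lie below the medians of the features taken as array controls, 4.09 to 4.29.

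Single probe sets showed whether a difference ran along a gene. In 7 of the 54 zinc finger genes with at least 3 probe sets, every probe set was higher in the knockout (5.25% of all such genes), and in 3 every probe set was lower (7.56%). All 13 of *Zfp142* were higher, by 0.04 to 0.35, all 11 of *Zfp369* by 0.07 to 0.70, all 5 of *Zfp652* by 0.12 to 0.24 and all 4 of *Zscan26* by 0.13 to 0.30. The remaining genes of the 7 had 3 probe sets each. Few probe sets share a sign more easily than many. Zinc finger genes had a median of 5.5 probe sets beside 8 over all genes, so the shares of 5.25% and 7.56% are not an even comparison. Over all 378 probe sets 228 were higher and 149 lower, where 52.0% of all probe sets were higher and 47.2% lower. Of the 378, 31 lay entirely above the controls (7.94% of all probe sets) and 6 entirely below (5.52%). *Zfp451* was higher at 16 of 18 probe sets and *Zfp287* at 11 of 12.

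In other genes single probe sets stood well above the rest. Probe set 10386162 of *Zfp672* had the smallest p of the family, with 6.35, 6.41 and 6.21 in the controls and 7.11, 7.23 and 6.92 in the knockouts. Its log2 difference was 0.76 (SE 0.11, limma adjusted p = 0.424), whereas 4 of the gene's 9 probe sets were lower, its brightest was at -0.09 and the mean over all but that probe set was 0.05. In *Zkscan8* probe set 10408051 went from 5.89, 5.77 and 5.65 to 6.42, 6.37 and 6.65 (0.71, SE 0.11, limma adjusted p = 0.459), while 2 of its 6 probe sets were slightly lower. Probe set 10405865, the last of *Zfp369* by ID, went from 4.32, 4.49 and 4.18 to 4.97, 4.87 and 5.24, a log2 difference of 0.70 (SE 0.13), and the gene's mean over the other 10 was 0.15. *Zfp62*, with a gene mean difference of 0.14 (SE 0.07) that was 0.06 without knockout 2, had 2 such probe sets among 7, 10375530 at 0.64 (SE 0.13) and 10375533 at 0.36 (SE 0.07), with the other 5 between -0.17 and 0.10. In all 4 genes the knockout values at these probe sets lay above every control value. Neither the exon behind a probe set nor its probe sequences were used here.

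**Figure D4:**
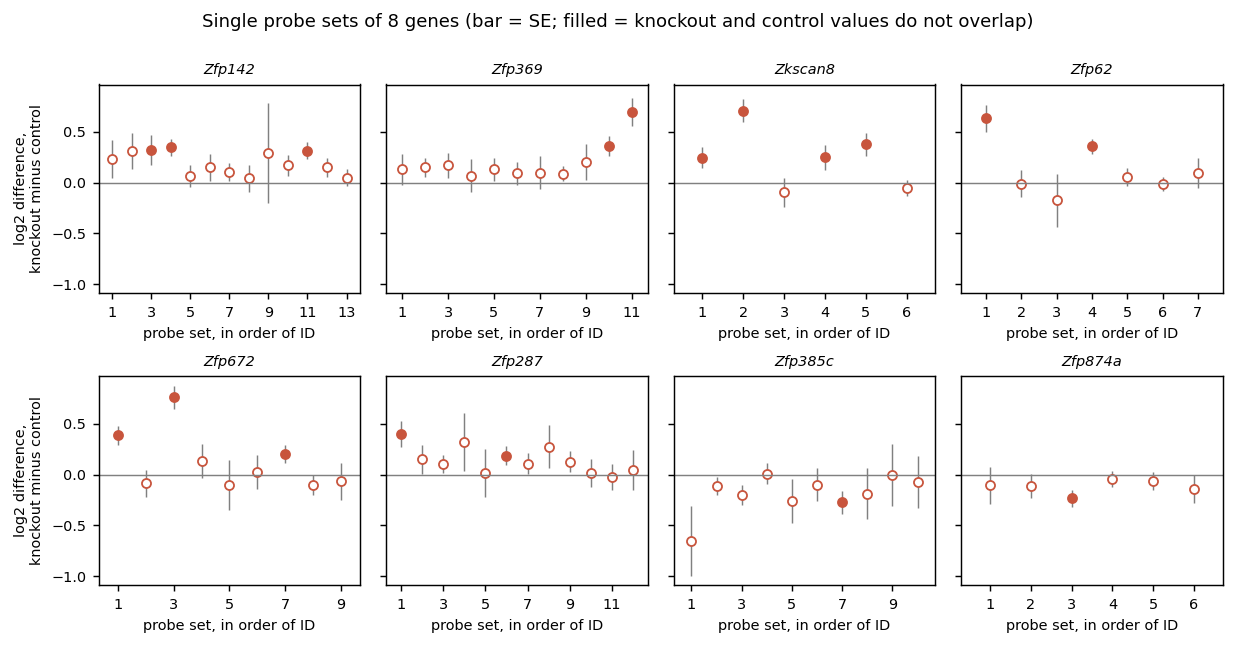
Log2 difference of knockout minus control (y axis, bars are limma SE) at each probe set, in order of ID (x axis), for 8 genes with 3 arrays per group; filled points have no overlap between groups. The points of *Zfp142* and *Zfp369* all lie above 0 and those of *Zfp874a* all below, while in *Zfp672* and *Zfp62* a few high points stand above others near 0.

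Lower values were fewer and smaller. *Zfp385c*, which belongs to a small family with matrin-type fingers, had the lowest gene mean, at 5.61, 5.30 and 5.40 in the controls and 5.23, 5.20 and 5.33 in the knockouts. Knockout 3 overlapped control 2, and the log2 difference of -0.19 (SE 0.08, limma adjusted p = 0.368) was -0.10 without control 1 and -0.05 with the median of its probe sets. Still, 9 of its 10 probe sets were lower. *Zfp874a* was at 4.92, 4.90 and 4.85 in the controls and 4.76, 4.84 and 4.72 in the knockouts, a difference of -0.12 on the log2 scale (SE 0.05, limma adjusted p = 0.366), and all 6 of its probe sets were lower. *Zfp456* had -0.11 (SE 0.09), in large part from the dim probe set 10410313, at 2.58, 2.68 and 2.71 in the controls and 2.11, 2.40 and 2.12 in the knockouts. *Zfp457* had -0.08 (SE 0.10), *Zfp367* -0.07 (SE 0.06) and *Zfp748* -0.05 (SE 0.05), and these 3 had overlapping groups. *Zfp706* had -0.03 (SE 0.05).

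*Zfp874a*, *Zfp456*, *Zfp457*, *Zfp748* and *Zfp595* belong to the densest run of the family, a KRAB zinc finger cluster on chromosome 13 that is known for regulators of sex-limited liver genes. Taking as a run those genes whose starts follow within 500 kb, it held 14 genes from *Zfp640* to *Zfp273*. By gene means 9 of the 14 were lower and 5 higher, with a median of -0.04 and a range of -0.12 to 0.06. By brightest probe sets 11 were lower and 3 higher, with a median of -0.07. The 44 other zinc finger genes had 32 higher and 11 lower by gene means, with a median of 0.05. The 10 others on chromosome 13 had 7 higher and 3 lower, with a median of 0.06, and all 645 genes of that chromosome had a median of -0.01. The run was set apart after its values were seen, so the contrast has no test. Per array, its median relative to the controls was -0.06, 0.04 and -0.05 in knockouts 1 to 3, so knockout 2 went the other way by gene means. By brightest probe sets it was -0.14, -0.04 and -0.02, below 0 in all 3. Genes of such clusters share sequence, and 13 probe sets that name a Zfp gene among several symbols were left out, so a value of 1 gene of the run can hold signal of another.

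On chromosome 11, 17 of 20 zinc finger genes were higher by gene means and 2 lower, with a median of 0.07 beside -0.01 over the 1550 genes of that chromosome. By brightest probe sets 12 were higher and 8 lower, with a median of 0.06. The run of 5 genes from *Zfp354c* to *Zfp354a* stayed near 0 apart from *Zfp354b*, with gene means between -0.01 and 0.13. *Zfp39* had 0.25 (SE 0.08, limma adjusted p = 0.477) at its brightest probe set, with 9.17, 9.08 and 9.13 in the controls and 9.42, 9.48 and 9.24 in the knockouts. It had 0.08 (SE 0.06) over its 10. *Zfp830*, a splicing-linked protein, had 0.13 (SE 0.05) at its brightest and 0.07 (SE 0.10) by mean. *Zfp750*, a factor of epidermal differentiation, had 0.03 (SE 0.14) by mean and -0.17 (SE 0.10) at its brightest. On chromosome 1, 3 of 4 were higher by gene means (median 0.12), on chromosome 10, 2 of 4 (median 0.00), and on chromosome 12, 3 of 5 (median 0.02). *Zfp366*, a factor of dendritic cells that lies between *Cert1* and *Slc38a9* on chromosome 13, had 0.08 (SE 0.08) by mean and -0.15 (SE 0.08) at its brightest.

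Genes for other zinc finger proteins and for the machinery used by KRAB proteins were set beside the family, and 0 passed in any list. Of 40 listed genes for co-repressors and silencing machinery 10 were measured, with 9 higher and 1 lower by both summaries and medians of 0.10 and 0.11. *Trim28* and *Setdb1* were not among those measured. *Dnmt3a*, a de novo DNA methyltransferase, was at 7.01, 7.18 and 7.05 in the controls and 7.40, 7.33 and 7.33 in the knockouts (log2 difference 0.27, SE 0.06, limma adjusted p = 0.215). The groups did not overlap. *Smyd3*, a lysine methyltransferase, had 0.29 (SE 0.08, limma adjusted p = 0.231). Whether KRAB proteins use each gene of this list was not tested. The BTB list of 11 genes, *Zbtb18* among them, had 9 higher and 2 lower by gene means, with a median of 0.06, and 8 higher and 2 lower by brightest probe sets, with a median of 0.09. *Zbtb7a*, a repressor, led it with 0.23 (SE 0.05, limma adjusted p = 0.215). The SCAN list of 7, which shares *Zkscan8* and *Zscan26* with the family, had 7 higher and 0 lower, with a median of 0.13, and 6 higher and 1 lower at brightest probe sets. Of 9 genes matched as Krüppel-like and SP factors 8 were higher and 1 lower (median 0.05) by gene means, and 5 higher and 4 lower by brightest probe sets; *Sp100* and *Sp110* among them are nuclear body proteins and not SP factors. RING finger genes had 17 higher and 9 lower by gene means (median 0.03) and 13 and 13 by brightest probe sets. Tripartite motif genes had 9 higher and 6 lower by gene means (median 0.02) but 6 higher and 9 lower by brightest probe sets (median -0.06). Of the smaller lists, by gene means, CCCH genes had 2 higher and 2 lower, Ikaros and Egr factors 2 and 3, DHHC palmitoyltransferases 1 and 2, CCHC genes 1 and 1, and the MYM, AN1, FYVE and homeobox list 1 and 3.

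Markers of brain cells were measured for few genes. Neuronal *Syt1*, *Map2*, *Mapt* and *Dlg4* (4 of 11 listed) had an average gene mean between 10.04 and 10.10 in the controls and between 10.07 and 10.14 in the knockouts, above the array medians of 7.04 to 7.09. The astrocyte list (4 of 9) was between 9.91 and 10.13 in the controls and between 9.71 and 9.93 in the knockouts, with 3 of 4 lower. Meningeal markers (4 of 6) were between 7.01 and 7.39 in the controls and between 7.04 and 7.10 in the knockouts, with 4 of 4 lower. Red cell markers (2 of 6) were between 4.86 and 4.91 in the controls and between 4.63 and 4.68 in the knockouts. At their brightest probe sets, however, 1 was higher and 1 lower, with *Slc4a1* at 0.24 beside -0.36 by gene mean. *Cnp* for oligodendrocytes had -0.05, *Cd68* for microglia -0.41, *Pecam1* for endothelium 0.06, and *Kcnj13* and *Ace* for choroid plexus 0.21 and -0.03. None of these markers passed, and their part in the values of the zinc finger genes was not tested. In bulk RNA, fewer cells of a type and less RNA per cell cannot be told apart.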

How the data were processed

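Log2 signals per probe set, with 2 decimals and from 1.69 to 14.41, were deposited by the authors for 6 arrays. The submitters' processing notes name MAS5; scaling between arrays and the genome build are not given in the sources used here. The number of arrays limits the precision. Array medians lay between 7.04 and 7.09, and pairs of arrays correlated between 0.984 and 0.990. Of 65535 features, 6616 were left out as array controls because their IDs precede every annotated one, a reading that rests on knowledge of the array. Genes came from platform annotation, with 698 of 5032 symbols updated by synonym in RefSeq (GRCm38.p6). A gene was summarised by the mean of its probe sets or by its brightest probe set (highest mean over 6 arrays).

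Knockout minus control was fitted with limma 3.58.1 (lmFit, eBayes, R 4.3.3), two-sided, over all genes or probe sets, and tested on simulated data. Named were the 8 genes per direction of smallest p by gene means and 5 by brightest probe sets, 4 per direction by extreme probe sets, 3 of opposite sign, the Zfp36 family, genes in the segments from *Cadm3* to *Nvl* and *Cert1* to *Slc38a9*, and the gene with most probe sets per chromosome. Other families name at most 2. The members and lists were chosen with earlier results of these data known. Alternatives covered scaling, filters, variance model, array weights, replicate block, each array left out, gene summary, membership and threshold.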

Additional observations from a re-analysis of the deposited data

Results flagged for a closer look

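Probe set 10355614, which the annotation gives to both *Zfp142* and its neighbour *Plcd4* and which entered no gene's value, was higher in every knockout array than in any control. It was at 7.75, 7.97 and 7.69 in the controls and 8.0, 8.0 and 8.03 in the knockouts, a log2 difference of 0.21. It was the 1 of 13 probe sets naming a Zfp gene among several symbols with this pattern, which 7.94% of all probe sets show. Its neighbours 10355612 and 10355613, of the same 2 genes, had 0.09 and 0.12, and 3 others, 10347414 to 10347416, had -0.29, -0.29 and -0.13.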

How the results depend on the processing

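In limma fits 0 zinc finger genes or probe sets had an adjusted p below 0.05 under any alternative run. The threshold of 0.1 was applied to the main fit only, where 0 passed too. All genes called were 0 by gene means, except 5 with only probe sets above the control features' 95th percentile, and 0 by brightest probe sets, except 1 with trend and robust moderation. Probe sets called, 3 as deposited, were 21 with trend and robust moderation, 19 after dropping 1 in 3 probe sets of lowest signal, 7 by array weights, 7 at a threshold of 0.1, 7 by median centring, 6 by quantile normalization and 0 to 4 when an array was left out. With the replicate block they were 0, and that fit called 0 zinc finger genes too. Same-numbered arrays deviated with correlations of 0.04, -0.07 and -0.10, beside -0.0807 to 0.137 for arrays of different numbers. With 3 arrays per group these values cannot settle whether the numbers mark pairs. Zinc finger genes higher by gene means, 37, ran from 30 to 38 without 1 array, with medians of 0.0061 to 0.048. With probe sets above the control features' 95th percentile only 6 genes were left, 3 of them higher, with a median of -0.0044. By brightest probe sets the median, 0.01, was -0.0030 with array weights, -0.0067 with median centring, -0.0175 with quantile normalization, 0.0483 without the chromosome 13 run and -0.0067 to 0.0242 without 1 array. The cause was not tested.

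Of 449 values of the 30 named genes under alternatives 422 kept their direction, and the smallest adjusted p was 0.0878, of *Zfp280b* with trend and robust moderation. At the brightest probe set the sign turned for *Zbtb18* (0.17), *Zfp672* (-0.0867), *Zfp207* (-0.0067), *Zfp750* (-0.17), *Zfp367* (0.0233), *Zfp595* (0.06) and *Zfp366* (-0.147). With each array's median of probe sets it turned for *Zfp207* (-0.0433), *Zfp830* (-0.0133), *Zfp750* (-0.14), *Zfp410* (-0.11), *Zfp457* (0.0833) and *Zfp456* (0.0367). With probe sets above the control feature median, chosen after seeing the data like the fit without the run, it turned for *Zfp750* (-0.0722), *Zfp595* (0.0287) and *Zfp456* (0.065). Array weights turned *Zbtb18* (0.0396) and *Zfp410* (-0.0105). With an array left out the values crossed 0 for *Zbtb18* (-0.166 to 0.0612), *Zfp830* (-0.0422 to 0.164), *Zfp750* (-0.0804 to 0.175), *Zfp277* (-0.0703 to 0.0035), *Zfp410* (-0.0515 to 0.0999) and *Zfp595* (-0.113 to 0.0625).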

Other observations

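Current nomenclature gives a Zfp symbol to 8 genes that the platform annotation names otherwise, 7 of them on chromosome 13. By gene means 4 were higher and 4 lower, around a median of 0.00 on the log2 scale, and 0 passed in limma (smallest adjusted p 0.307 by gene means). *Zfp934*, with a single dim probe set, was at 2.61, 2.42 and 3.02 in the controls and 3.23, 3.26 and 2.87 in the knockouts, a difference of 0.44 on the log2 scale (SE 0.16, limma adjusted p = 0.307). Control 3 overlapped the knockouts. *Zfp874b*, the namesake of *Zfp874a*, was at 5.82, 5.61 and 5.95 in the controls and 5.31, 5.83 and 5.28 in the knockouts, a log2 difference of -0.32 (SE 0.15) by gene mean. At its brightest probe set it was 0.18 (SE 0.07, limma adjusted p = 0.516), with no overlap between groups, so its 3 probe sets disagreed. Both genes were picked here after their values were seen.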
